A study of Mus musculus with 9 samples.

Results

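The genes described here are 10 antimicrobial and oxidant defence genes of the gut epithelium, Reg3b, Reg3g, Reg4, Ang4, Lypd8, Duox2, Duoxa2, Nos2, Nox1 and Saa1, taken by gene symbol from a table of 45777 genes. The study sequenced RNA from mouse colon tissue to compare immobilised with control mice, in 9 libraries that form 3 groups of 3. All mice were wild type. IM-HYA mice wore a hindlimb cast for 10 days and ate a diet containing HYA, an abbreviation that the labels do not spell out. IM mice wore the cast and ate the normal diet. CT mice ate the normal diet as uncasted controls, according to their treatment label, although the protocol text that describes the cast stands on every library. No library comes from HYA-fed mice without a cast, and mouse age, strain and the stretch of colon taken are not given in the labels. The labels number the replicates but do not say whether each is a separate animal, so the p-values below measure the spread between these libraries.

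The gut epithelium keeps microbes away from its surface in several ways. Secretory cells and enterocytes release lectins, ribonucleases and other proteins that kill or bind bacteria, and surface enzymes make hydrogen peroxide, superoxide or nitric oxide. Several of these genes are known to respond to microbial contact through Il22, Stat3 and Myd88 signalling, and several are known to be used unevenly along the length of the colon. Because the tissue is bulk colon, fewer cells of a type and less RNA per cell cannot be told apart.

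Among the members, Reg3b and Reg3g are neighbours on mouse chromosome 6, with 92802 bases between them. Reg3b lies at chr6:78370885-78373466 on the plus strand and Reg3g at chr6:78466269-78468874 on the minus strand. Duox2 at chr2:122279246-122298740 and Duoxa2 at chr2:122298900-122302885 point away from each other across 159 bases. The other members stand alone, Reg4 at chr3:98222138-98236748, Ang4 at chr14:51763892-51773590, Lypd8 at chr11:58379032-58390541, Nos2 at chr11:78920787-78960226, Nox1 at chrX:134086421-134137711 and Saa1 at chr7:46740497-46743181. Positions are those of RefSeq on GRCm38.p6.

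The stretches upstream of the Reg genes are shown because Reg4 and Reg3g were the members that passed the test on the distal Hox score below, in opposite directions, and Reg3b moved with Reg3g. The stretch between Duox2 and Duoxa2 is shown because only these 159 bases lie between the annotated ends of the genes. The start sites that RefSeq gave for Reg4, Duox2, Nox1 and Saa1 in the windows compared next lie inside the genes. The end of the Reg3b stretch overlaps an annotated exon of Reg3b, and the other stretches overlap no annotated exon. Each is RefSeq sequence on GRCm38.p6, read 5′ to 3′ on the strand of the gene (of Duoxa2 for the shared stretch). Capitals mark matches, on either strand, to TTCNNNGAA (the STAT motif), the NF-kB motif, TTTATNG (the caudal motif) and TATAAA (the TATA box).
Reg3b, chr6:78370710-78370864, plus strand: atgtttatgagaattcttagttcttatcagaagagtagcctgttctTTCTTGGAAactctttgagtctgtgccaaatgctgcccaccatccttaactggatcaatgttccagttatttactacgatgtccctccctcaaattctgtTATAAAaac
Reg3g, chr6:78468895-78469049, minus strand: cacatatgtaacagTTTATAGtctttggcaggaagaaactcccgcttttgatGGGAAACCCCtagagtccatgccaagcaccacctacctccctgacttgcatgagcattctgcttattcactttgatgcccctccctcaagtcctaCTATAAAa
Reg4, chr3:98221981-98222135, plus strand: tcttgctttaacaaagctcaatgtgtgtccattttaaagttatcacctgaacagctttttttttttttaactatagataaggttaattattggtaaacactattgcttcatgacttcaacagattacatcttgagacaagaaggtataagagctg
Duox2 and Duoxa2, chr2:122298741-122298899, plus strand: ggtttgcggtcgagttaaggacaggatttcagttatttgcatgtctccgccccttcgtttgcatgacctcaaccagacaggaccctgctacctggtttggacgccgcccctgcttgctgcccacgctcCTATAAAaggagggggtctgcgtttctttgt

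The windows compared next were the 250 bases before each start site, which RefSeq gave for 9 of the 10 members. Lypd8 had 2 such windows, and the first was compared. The Reg3b and Reg3g windows were identical at 68.9% of aligned positions, and the next most alike pair of members, Reg3g and Lypd8, at 52.6%. The Reg3b window held the STAT motif 129 to 121 bases before the start site, a motif present in 7.02% of all 32851 RefSeq windows of that length. The Reg3g window held the NF-kB motif, present in 4.11% of all windows, 123 to 114 bases before its start site, on the opposite strand. It also held the caudal motif, present in 9.81% of windows, at a pair of places, and both overlap a TATAAA match, as the single caudal match before Duoxa2 does. TATAAA, present in 12.4% of all windows, stood just before the start sites of Reg3b, Reg3g and Duoxa2. Of the other members, Ang4 also held the STAT motif in its window, and Nox1 the NF-kB and caudal motifs. The Reg4 stretch held none of the 4 marked motifs. A further motif, GATAA, occurs in 22.6% of windows and is left in lower case; it matched in the Reg3b and Reg4 stretches. These matches are descriptions of letters and were not tested as binding sites.

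Library depth ran from 19638401 to 42917198 counts. In CT 2, the 10 pancreatic acinar markers took 24.3% of all counts, against 0.0105% to 0.407% in the other libraries, where IM 3 was highest. IM 3 also had the highest T cell, B cell and adipocyte marker scores and the lowest epithelial score, 9.23 against 9.70 to 10.0 in the other libraries (mean log2 CPM over 12 epithelial markers, where CPM are counts scaled to the effective size of the library). The scaling factor behind the effective size was 0.473 in CT 2, against 0.893 to 1.26 in the other libraries. A low factor makes CPM larger for the same share of counts, so CT 2 stands higher in CPM than without it. All 12 epithelial markers, Epcam and keratins among them, were detected in every library. Libraries also differed in a distal Hox score, the mean log2 CPM of 7 Hox genes that are known to be most active in the distal colon. The score was 4.47, 1.43 and 4.47 in IM-HYA 1 to 3, 4.51, 0.66 and −0.46 in IM 1 to 3, and 4.40, 3.08 and 1.61 in CT 1 to 3. Each group thus holds libraries with high and lower scores, and IM holds the lowest scores.

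The TPM values, which account for gene length as well as library size, were used to rank the members. Lypd8 had the highest level, with a median of 10174 TPM over the 9 libraries and a range of 3332 to 15097 TPM. Saa1 followed with a median of 3254 TPM (346 to 5205 TPM) and was below Lypd8 in all 9 libraries. Reg4 came next with a median of 240.3 TPM (17.8 to 531 TPM), below Saa1 and above Duoxa2 in all 9. Single libraries broke that order: in IM 3 Reg3b had 402 TPM against 346 TPM for Saa1 and 17.8 TPM for Reg4, and in CT 3 Ang4 had 465 TPM against 240.3 TPM for Reg4. Duoxa2 had a median of 9.37 TPM (5.16 to 13.9 TPM) and Duox2 of 7.24 TPM (2.48 to 19.1 TPM), and their ranges overlapped. Ang4 had a median of 4.69 TPM but ran from 0 to 465 TPM, and Nox1 one of 3.20 TPM (0.274 to 7.60 TPM). Reg3g and Reg3b had medians of 0.914 and 0.855 TPM with ranges reaching 63.8 and 402 TPM, and could not be put in order against Ang4 or Nox1. Nos2 was the lowest, with a median of 0.272 TPM and 6 to 49 reads per library.

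Reg3b and Reg3g encode secreted C-type lectins that act on bacteria near the epithelial surface, and both were close to absent in most libraries and high in a few. Reg3b had 0, 2.49 and 0 CPM in IM-HYA 1 to 3, 0, 8.64 and 204 CPM in IM 1 to 3, and 0, 22.9 and 0.513 CPM in CT 1 to 3. IM 3 was the highest library and CT 2 the next, and the groups overlapped. In the 4 libraries with 0 Reg3b reads, 3 reads would have been 0.0599 to 0.0726 CPM, the limit that a count of 0 allows for counting error. Reg3g had 0.120, 0.897 and 0.0726 CPM in IM-HYA 1 to 3, 0, 6.62 and 33.0 CPM in IM 1 to 3, and 0, 1.23 and 0.513 CPM in CT 1 to 3. IM 3 and IM 2 were the highest, and IM 1 and CT 1 had no Reg3g read. Outside IM 2 and IM 3 the Reg3g level rested on at most 45 reads, in IM-HYA 2. Over the 9 libraries the log2 CPM of the lectins had a Pearson correlation of 0.94, given as a description.

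The balance between the lectins was not the same in all libraries. The ratio of Reg3b to Reg3g in TPM was 2.86 in IM-HYA 2, 1.33 in IM 2, 6.31 in IM 3, 19.8 in CT 2 and 0.936 in CT 3. CT 2 stood highest, and it was also the library with most pancreatic marker counts. Other Reg genes, which are known in the pancreas, were high in the same library. Reg1 had 7039 CPM in CT 2, 23.1 CPM in IM 3, 2.66 CPM in IM 1 and at most 0.218 CPM elsewhere. Reg2 and Reg3d had 194 and 158 CPM in CT 2, 4.51 and 0.419 CPM in IM 3, and 0 reads in the other 7 libraries. Reg3a, a further lectin of the same cluster, had 54 reads in CT 2, 10 in IM 3 and 0 elsewhere. The order of libraries for Reg3b was therefore the reverse of that for Reg1 at the top, with IM 3 above CT 2. The part of pancreatic RNA in the Reg3b reads of CT 2 was not tested, and the values without CT 2 are given with the contrasts below.

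**Figure D1:**
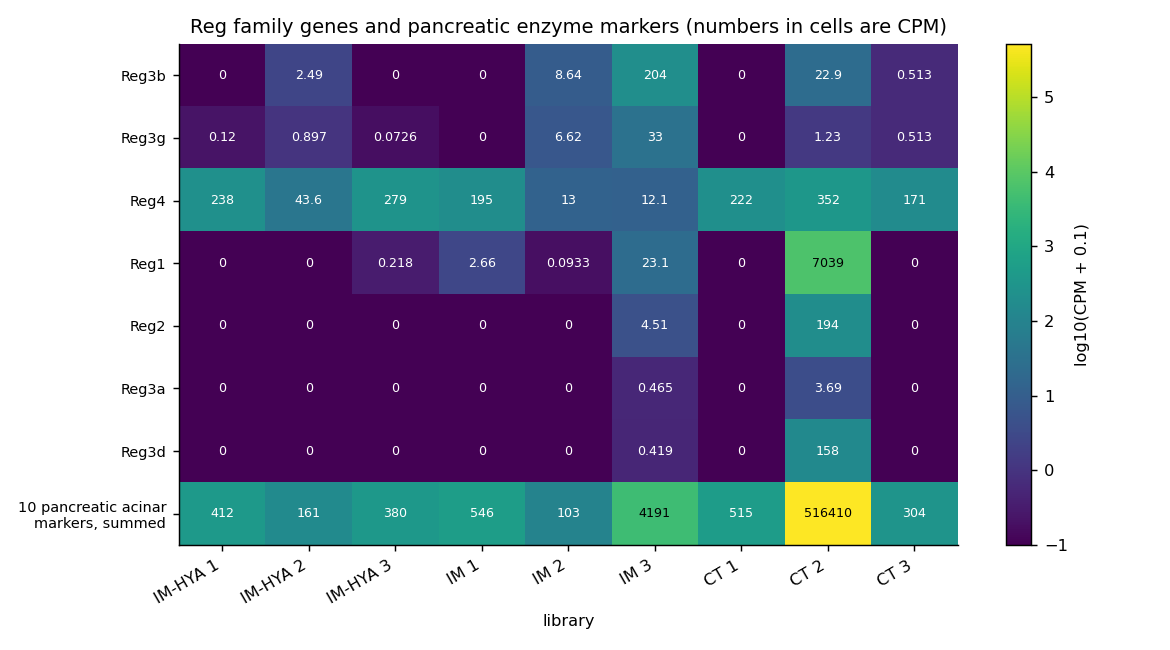
Normalised counts (CPM) of the Reg family genes and of 10 pancreatic acinar markers summed, one column per library, coloured by log10(CPM + 0.1). Reg1, Reg2, Reg3a and Reg3d are highest in CT 2 with the pancreatic markers, Reg3b and Reg3g are highest in IM 3, and Reg4 is lowest in IM 2 and IM 3.

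Reg4, a related secreted lectin of colonic secretory cells, was low where Reg3g was high. Its level was 238, 43.6 and 279 CPM in IM-HYA 1 to 3, 195, 13.0 and 12.1 CPM in IM 1 to 3, and 222, 352 and 171 CPM in CT 1 to 3. IM 2, IM 3 and IM-HYA 2 were the low libraries, IM 1 lay with the higher ones, and the groups overlapped. CT 2, the highest library in CPM, was the lowest CT library in TPM, with 216 TPM against 376 in CT 1 and 240.3 in CT 3. Reg4 and Reg3g had a correlation of −0.82 over the 9 libraries.

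Ang4, a secreted ribonuclease with activity against bacteria, was close to all or none. It had 0.279, 139 and 1.72 CPM in IM-HYA 1 to 3, 0, 33.3 and 2.33 CPM in IM 1 to 3, and 0.0471, 1.98 and 232 CPM in CT 1 to 3. A single library was high in each group (IM-HYA 2, IM 2 and CT 3). Those were also the 3 libraries with the highest goblet marker scores, 9.98, 9.56 and 9.48 mean log2 CPM against 8.35 to 8.99 in the others, and a part of goblet content in the Ang4 level was not tested. The 6 Paneth cell markers summed to 2.83 to 107 CPM in IM-HYA, 2.24 to 12.3 CPM in IM and 3.76 to 35.7 CPM in CT. Lyz1 had 55 to 419 reads in every library, Mmp7 reached 99.9 CPM in IM-HYA 3 and 25.8 CPM in CT 1, Defa17 and Defa24 had reads in IM 2 alone, and Defa21 and Defa30 had no read in any library. The part of Paneth cells in the Ang4 level was not tested. Ang4 shares 4.70% of its distinct 50-base words with other annotated genes, mostly with Ang5. Ang, another member of its family, had 12.0 to 28.5 CPM in IM-HYA, 12.9 to 30.7 CPM in IM and 15.8 to 53.4 CPM in CT.

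Lypd8 is a protein shed from colonic enterocytes that binds flagellated bacteria. Lypd8 had 8074, 6084 and 7999 CPM in IM-HYA 1 to 3, 7904, 4606 and 2461 CPM in IM 1 to 3, and 7007, 8291 and 3545 CPM in CT 1 to 3. IM 3 and CT 3 were the lowest, and all groups overlapped. CT 2, the highest library in CPM, had 4617 TPM against 10711 TPM in CT 1. The 3 IM-HYA libraries lay within a narrower range than the libraries of IM and of CT.

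Saa1 encodes serum amyloid A, an acute phase protein that the gut epithelium also makes. Its level was 1650.3, 1115 and 1532 CPM in IM-HYA 1 to 3, 1107, 809 and 143 CPM in IM 1 to 3, and 1699, 2063 and 1337 CPM in CT 1 to 3. Every IM library lay below every CT library. Every IM-HYA library lay above every IM library, but IM-HYA 2 and IM 1 differed by less than 1% of their level. The same separations appeared with either alternative scaling of the counts, and neither held in TPM. In TPM the ranges were 3254 to 5205 in IM-HYA, 346 to 3688 in IM and 2015 to 4551 in CT. Of the Saa1 words of 50 bases, 31.5% occur in another gene, nearly all in Saa2, so reads could be split between these genes. Saa2 had no more than 39 reads in any library.

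The enzymes that make hydrogen peroxide at the apical surface, Duox2 with its maturation partner Duoxa2, varied less between libraries than the lectins and Ang4. Duox2 had 27.2, 62.9 and 20.1 CPM in IM-HYA 1 to 3, 26.4, 42.8 and 20.7 CPM in IM 1 to 3, and 18.2, 24.5 and 31.7 CPM in CT 1 to 3. IM-HYA 2 was the highest and the groups overlapped. Duoxa2 had 8.34, 10.3 and 7.84 CPM in IM-HYA 1 to 3, 6.94, 14.1 and 5.53 CPM in IM 1 to 3, and 7.97, 13.5 and 12.4 CPM in CT 1 to 3, and its groups overlapped too. The ratio of Duox2 to Duoxa2 in TPM was 0.855, 1.60 and 0.673 in IM-HYA 1 to 3, 0.998, 0.794 and 0.987 in IM 1 to 3, and 0.597, 0.474 and 0.669 in CT 1 to 3. The lowest ratio was in CT 2 and the highest in IM-HYA 2, and no test was made of the ratio. The log2 CPM of this pair had a correlation of 0.53 over the 9 libraries. Duox1 and Duoxa1, the neighbouring dual oxidase pair, had at most 19 and 13 reads in a library. Duox2 shares 6.05% of its 50-base words with Duox1, and Duoxa2 overlaps an exon of Duoxa1 on the other strand, so reads of that pair could not all be told apart.

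Nox1 is the NADPH oxidase of colonic epithelium and makes superoxide. Nox1 had 5.07, 4.27 and 6.43 CPM in IM-HYA 1 to 3, 9.23, 5.10 and 0.558 CPM in IM 1 to 3, and 4.86, 8.88 and 12.1 CPM in CT 1 to 3. IM 3, the library with the lowest epithelial score, stood far below all others, with 12 reads, and the groups overlapped. Nox1 overlaps an exon of Cstf2 on the opposite strand. Its organiser Noxo1 had 73.6 to 77.3 CPM in IM-HYA, 49.0 to 76.3 CPM in IM and 83.5 to 89.5 CPM in CT, and its activator Noxa1 had 27.2 to 47.8 CPM in IM-HYA, 16.7 to 28.9 CPM in IM and 21.6 to 27.4 CPM in CT. Cyba, the membrane partner that phagocyte oxidases share, had 76.7 to 86.1 CPM in IM-HYA, 66.2 to 240.2 CPM in IM, where IM 3 was the highest, and 107 to 133 CPM in CT.

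Nos2, the inducible nitric oxide synthase, was near the lower limit of detection. It had 0.978, 0.718 and 0.701 CPM in IM-HYA 1 to 3, 0.878, 0.529 and 0.605 CPM in IM 1 to 3, and 0.684, 0.410 and 0.856 CPM in CT 1 to 3. The groups overlapped in CPM. In TPM, IM-HYA ran from 0.315 to 0.460 and lay above CT, at 0.0553 to 0.272. The share of all genes separated in TPM was not computed. In CPM it was 10.8% in that direction, but TPM do not carry the scaling factor of CPM, so that share is no background for the TPM separation. Nos2 had 29, 6 and 15 reads in CT 1 to 3.

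**Figure D2:**
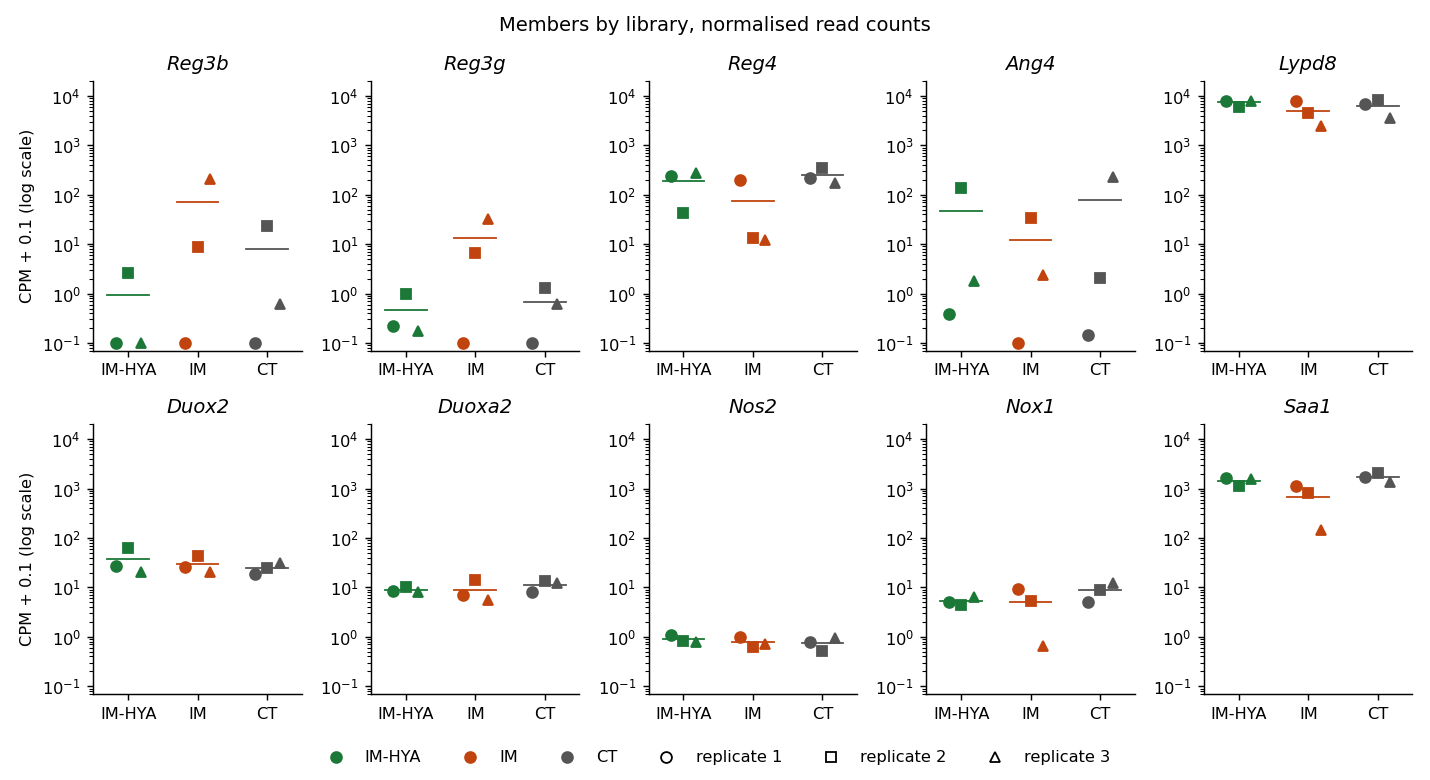
Normalised counts of the 10 members in each library (CPM + 0.1, log scale), with the IM-HYA, IM and CT groups side by side, a marker shape per replicate number and a bar at the group mean. Reg3b, Reg3g and Ang4 span more than 2 powers of 10 within the IM group, whereas Lypd8, Duox2, Duoxa2 and Nos2 stay within a narrow band.

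The cast was assessed on the normal diet by setting IM against CT. No member passed edgeR's quasi-likelihood test at a Benjamini-Hochberg adjusted p under 0.05, where 0.00543% of the 18414 genes tested did (1 gene). At an unadjusted p under 0.05, 1 of the 10 members was counted (Reg3g) against 6.88% of all genes, and DESeq2 called 0 members and 0.353% of genes. DESeq2 gave no adjusted p for Ang4 in any of the group comparisons in this report. Genes without an adjusted p are counted as not called in its counts and shares. Reg3g averaged 13.2 ± 17.4 CPM in IM and 0.581 ± 0.618 CPM in CT (SD, n = 3 each), a log2 difference of 4.63 with a standard error (SE) of 2.04 (adjusted p = 0.707). Without IM 3 it was 2.61. Reg3b averaged 70.9 ± 115 CPM in IM and 7.80 ± 13.1 CPM in CT, a log2 difference of 3.21 (SE 2.71, adjusted p = 0.783). Without IM 3 that difference was −0.84, and without CT 2 it was 8.46. With the distal Hox score in the model the differences were −5.86 for Reg3b and 0.15 for Reg3g.

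None of the members that were lower in IM passed either. Saa1 averaged 686 ± 493 CPM in IM and 1699.5 ± 363 CPM in CT (log2 difference −1.31, SE 0.59, adjusted p = 0.707). It was the only member whose IM and CT libraries did not overlap, in a direction in which 4.59% of all genes did not overlap. Reg4 averaged 73.4 ± 105 CPM in IM and 248 ± 93.0 CPM in CT (log2 difference −1.76, SE 1.06, adjusted p = 0.715). Ang4 had a log2 difference of −2.71 (SE 2.87), which became 3.75 without CT 3. Nox1, Duoxa2 and Lypd8 had log2 differences of −0.78, −0.35 and −0.33, and Duox2 and Nos2 of 0.28 and 0.04, with SEs between 0.37 and 0.74. The median over the 10 members was −0.34, beside 0.04 over all genes tested.

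The HYA diet was assessed under the cast by setting IM-HYA against IM, and this comparison shares the IM libraries with the one above. Again 0 members passed, and 0.0% of all genes did; at an unadjusted p under 0.05, 1 member was counted (Reg3g) against 6.32% of all genes, and DESeq2 called 0 members and 0.234% of genes. Reg3g averaged 0.363 ± 0.463 CPM in IM-HYA and 13.2 ± 17.4 CPM in IM, a log2 difference of −5.15 (SE 2.03, adjusted p = 0.666). Reg3b averaged 0.831 ± 1.44 CPM in IM-HYA and 70.9 ± 115 CPM in IM, a log2 difference of −6.39 (SE 3.16, adjusted p = 0.666). Without IM 3 the differences were −3.16 for Reg3g and −2.35 for Reg3b, and without IM-HYA 2 the Reg3b difference was −14.18. With the distal Hox score in the model the differences were −0.71 for Reg3g and −0.53 for Reg3b.

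Saa1 averaged 1432 ± 281 CPM in IM-HYA and 686 ± 493 CPM in IM (log2 difference 1.06, SE 0.59, adjusted p = 0.666). Groups failed to overlap in that direction for 5.39% of all genes. Ang4 and Reg4 had log2 differences of 1.98 (SE 2.80) and 1.35 (SE 1.04). The Ang4 value became −3.58 without IM-HYA 2, the library that held nearly all the group's Ang4 reads. Lypd8, Duox2, Nos2, Nox1 and Duoxa2 had log2 differences of 0.57, 0.29, 0.25, 0.07 and −0.01. The median over the members was 0.27, beside −0.01 over all genes.

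IM-HYA against CT shares libraries with both comparisons above and is given for its own values. No member passed, where 0.00543% of all genes did, and 0 members had an unadjusted p under 0.05, against 4.46% of all genes; DESeq2 called 0 members and 0.0815% of genes. Saa1 averaged 1432 ± 281 CPM in IM-HYA and 1699.5 ± 363 CPM in CT (log2 difference −0.25, SE 0.58). Reg4 averaged 187 ± 126 CPM in IM-HYA and 248 ± 93.0 CPM in CT (log2 difference −0.41, SE 1.03). The Reg3b difference was −3.18 (SE 2.79) and became 2.17 without CT 2, the library with most pancreatic marker counts. The Reg3g difference was −0.52 (SE 1.94) and became 0.81 without CT 2. Duox2 averaged 36.7 ± 22.9 CPM in IM-HYA and 24.8 ± 6.78 CPM in CT (log2 difference 0.57, SE 0.44) and the difference became −0.06 without IM-HYA 2. When all 3 groups were tested together, 0 members passed where 0.00543% of genes did, 1 member (Reg3g) had an unadjusted p under 0.05 where 5.42% of genes did, and DESeq2 called 0 members and 0.489% of genes.

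**Figure D3:**
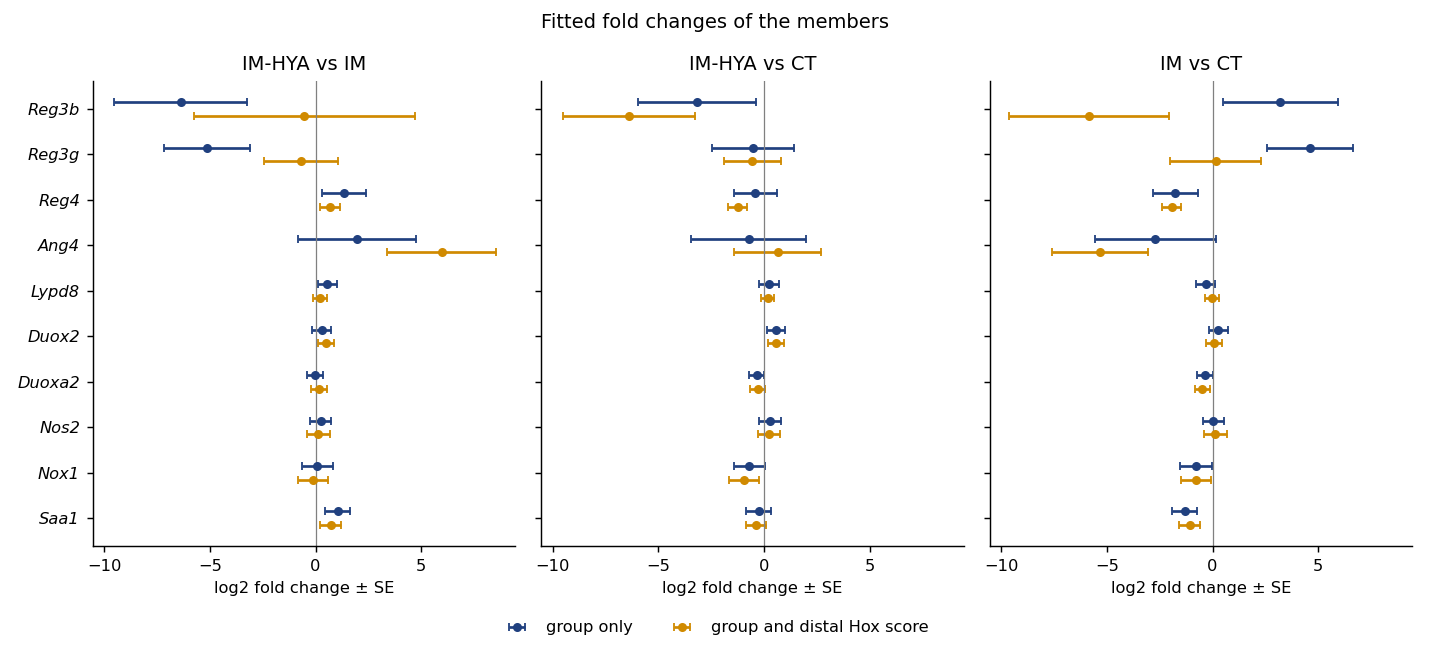
Fitted log2 fold changes of the 10 members, with standard errors, for IM-HYA against IM, IM-HYA against CT and IM against CT, from models with group only and with group and the distal Hox score. None passed an adjusted p of 0.05 in any panel, and the Reg3b value for IM against CT changes sign between the models, 3.21 against −5.86.

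The members were then set against the distal Hox score, since each group spans a range of scores. In a model with group and score, 2 of the 10 members passed, 1 in each direction, where 9.98% of all genes tested did, 5.28% higher and 4.70% lower at a high score. Hoxd13, a gene of the score, had 96.0, 3.65 and 105 CPM in IM-HYA 1 to 3, 99.5, 0.591 and 0 CPM in IM 1 to 3, and 105, 33.6 and 4.62 CPM in CT 1 to 3. The genes of the score did not all order the libraries alike: Hoxd9 was highest in IM 3 (14.1 CPM), and Hoxa13 had 0.754 CPM in CT 1, a library with a high score. Reg4 rose by 0.76 log2 units per unit of the score (SE 0.11, adjusted p = 0.00913). The 3 libraries with the lowest scores, IM 3, IM 2 and IM-HYA 2, had the 3 lowest Reg4 levels. Reg3g fell by 1.62 log2 units per unit of the score (SE 0.37, adjusted p = 0.0389). It was highest in IM 3 and IM 2, at the low end of the score, and at most 0.120 CPM in the 4 libraries with scores above 4.

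The other members had slopes of mixed sign that did not pass. Reg3b had a slope of −2.82 (SE 0.93, adjusted p = 0.111), with CT 2 above the libraries whose scores lay nearest to its own. Ang4 had a slope of −2.74 (SE 0.69, adjusted p = 0.0628), but its levels did not follow a line: they were highest at scores between 0.66 and 1.61 and lower at either end. Lypd8 had a slope of 0.26 (SE 0.08, adjusted p = 0.0629) and Saa1 one of 0.28 (SE 0.12, adjusted p = 0.154). The oxidant genes had the shallowest slopes, 0.24 for Nox1, −0.19 for Duox2, −0.10 for Duoxa2 and 0.07 for Nos2, with adjusted p-values between 0.202 and 0.730. DESeq2 called Reg3b, Reg3g, Reg4, Ang4 and Lypd8, where it called 21.8% of all genes.

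The slope calls changed when single libraries were left out. Without IM 1 neither gene passed, with a Reg4 slope of 0.56 (adjusted p = 0.469) and a Reg3g slope of −1.15 (adjusted p = 0.506), and 25 genes in all were called. The Reg3g call also ended without CT 1 (slope −1.52, adjusted p = 0.0583), IM 2 (−1.58, 0.0543), IM 3 (−1.51, 0.0829), IM-HYA 1 (−1.78, 0.0755), IM-HYA 2 (−2.0, 0.0524) or IM-HYA 3 (−1.66, 0.0931). Without both CT 2 and IM 3, the libraries with most pancreatic marker counts, 6 members passed (Reg3b, Reg3g, Ang4, Lypd8, Duox2 and Duoxa2), where 12.7% of all genes did, and Reg4 did not, with an adjusted p of 0.0646. With replicate number added as a block, no member passed on the score and 18 genes in all were called. The labels give no stretch of colon, so what the score stands for in these libraries was not tested beyond the Hox genes themselves.

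**Figure D4:**
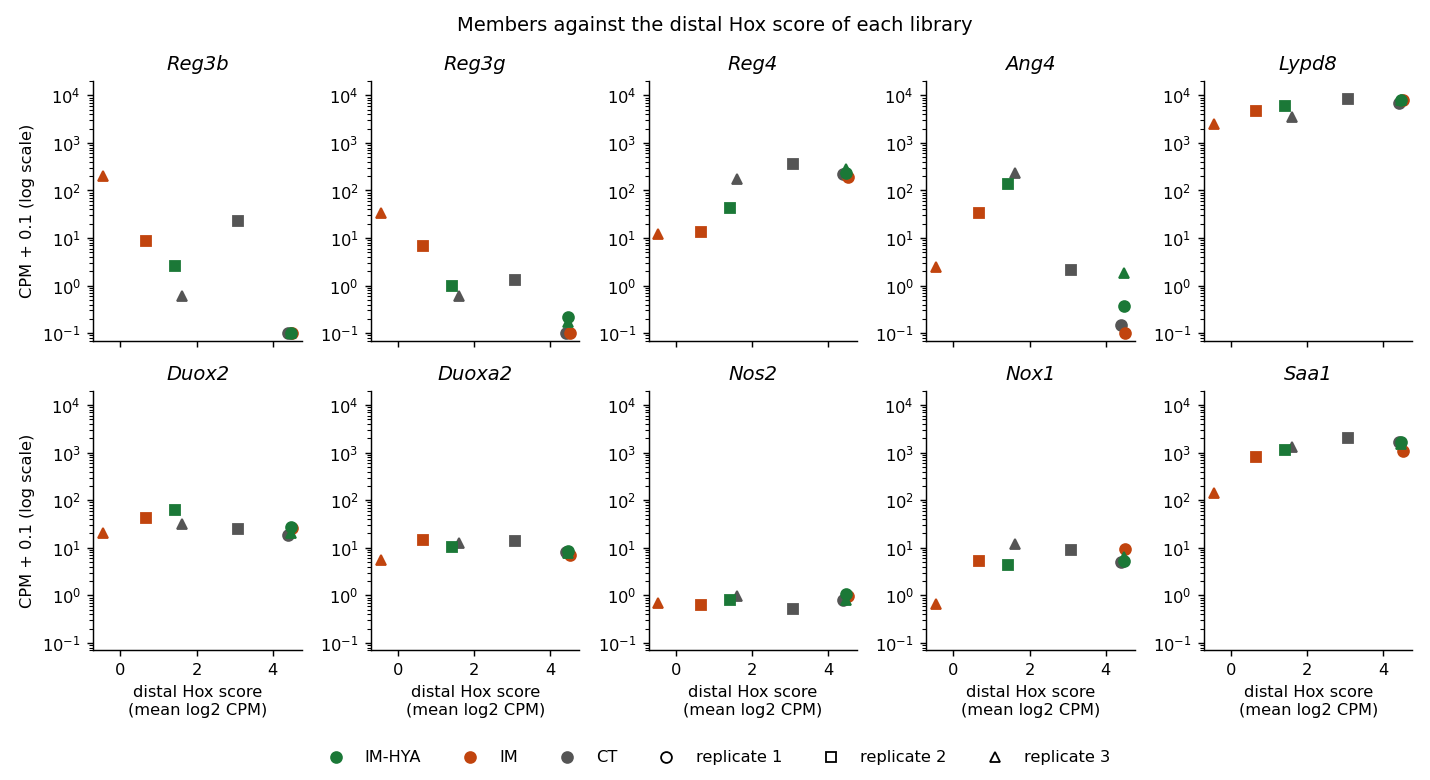
Normalised counts of the 10 members (CPM + 0.1, log scale) against the distal Hox score of each library (mean log2 CPM of 7 Hox genes), coloured by group. Reg4 is lowest and Reg3g highest at the low end of the score, and Ang4 peaks at scores of 0.66 to 1.61.

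**Figure D5:**
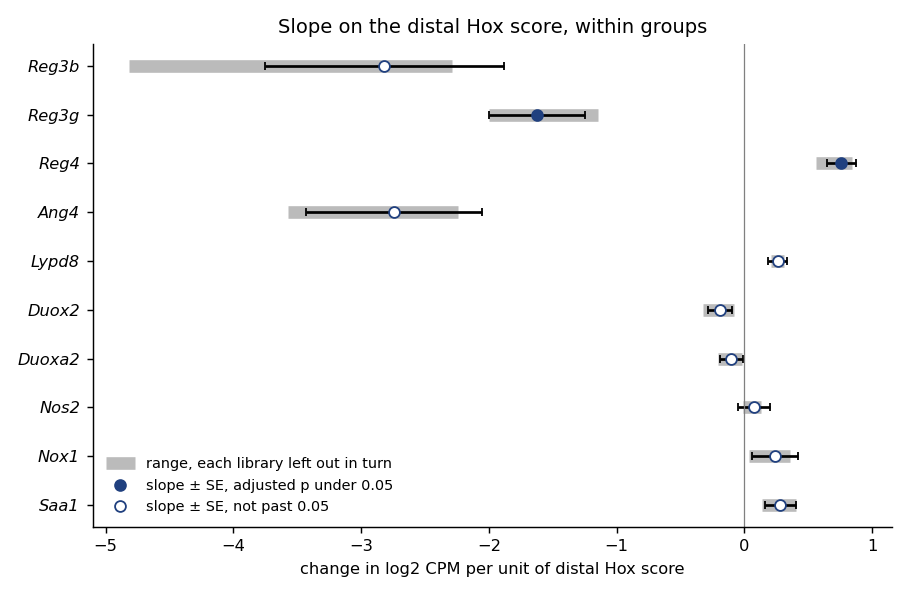
Slope of each member on the distal Hox score in a model that also holds group, with standard errors, and the range of slopes with each library left out in turn. Filled points passed an adjusted p of 0.05, Reg4 at 0.76 and Reg3g at −1.62, and both keep their sign in every one of the left-out fits.

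Other genes of the same defences were counted from lists. Of 28 other secreted antimicrobial genes, 20 could be tested and 0 passed in any group comparison, with DESeq2 calling 0 as well. At an unadjusted p under 0.05 there were 5 for IM against CT, 1 for IM-HYA against IM and 2 for IM-HYA against CT, beside 6.88%, 6.32% and 4.46% of all genes in these comparisons, which hold for the lists below too. The smallest p in IM against CT was that of Saa3, an amyloid made by epithelium and macrophages, with 1.10, 5.57 and 21.3 CPM in IM 1 to 3 and 0, 0 and 0.513 CPM in CT 1 to 3 (log2 difference 5.92, SE 1.50, adjusted p = 0.707). Saa3 had 0.958, 2.33 and 1.43 CPM in IM-HYA 1 to 3. Saa3 was highest in IM 3, which Saa1 was lowest in. Wfdc2, an epithelial protease inhibitor, had a log2 difference of −1.35 for IM against CT (SE 0.45, adjusted p = 0.707). Slpi, another protease inhibitor, had 2.81, 6.16 and 2.2 CPM in IM-HYA 1 to 3 and 5.65, 5.38 and 67.8 CPM in IM 1 to 3 (log2 difference −2.81, SE 0.96, adjusted p = 0.666).

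With the distal Hox score, 4 of these 20 genes passed, where 9.98% of all genes did. The lysozyme gene Lyz2 rose by 0.35 log2 units per unit of the score (SE 0.07, adjusted p = 0.0238), and the beta defensin gene Defb1 by 2.91 (SE 0.60, adjusted p = 0.0251), although Defb1 exceeded 1 CPM only in IM-HYA 3 (5.64 CPM) and CT 1 (4.01 CPM). Saa3 fell by 0.77 (SE 0.20, adjusted p = 0.0440). Retnlb, a goblet cell protein that acts on bacteria, fell by 2.58 (SE 0.59, adjusted p = 0.0484), with 12.3 CPM in IM-HYA 2, 156 and 40.6 CPM in IM 2 and IM 3, 57.6 CPM in CT 3 and at most 0.266 CPM elsewhere.

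Of 17 other genes of the NADPH oxidase, dual oxidase and nitric oxide synthase families and their partners, 14 could be tested and 0 passed in any group comparison by edgeR or DESeq2. Unadjusted p-values under 0.05 numbered 3 for IM against CT, 4 for IM-HYA against IM and 0 for IM-HYA against CT. Rac2, the blood cell partner of the phagocyte oxidase, had 8.36, 9.83 and 7.47 CPM in IM-HYA 1 to 3, 20.0, 6.56 and 88.6 CPM in IM 1 to 3, and 10.5, 9.77 and 8.22 CPM in CT 1 to 3. IM 3 and IM 1 were also the libraries with the highest T cell marker scores, 4.53 and 1.39 mean log2 CPM against −0.80 to 0.52 in the other libraries, and the part of immune cells in the Rac2 level was not tested. Noxo1 had a log2 difference of −0.49 for IM against CT (SE 0.20, adjusted p = 0.707). On the distal Hox score, 1 of the 14 tested genes of this list passed, where 9.98% of all genes did. It was Rac1, the ubiquitous partner of Nox1 (slope 0.25, SE 0.06, adjusted p = 0.0434).

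All 18 oxidant removal genes could be tested, and 0 passed in any group comparison by edgeR or DESeq2, with 2, 3 and 3 genes at an unadjusted p under 0.05 for IM against CT, IM-HYA against IM and IM-HYA against CT. Hmox1, the inducible heme oxygenase, had 9.34, 7.28 and 7.23 CPM in IM-HYA 1 to 3, 18.5, 8.49 and 18.4 CPM in IM 1 to 3, and 9.26, 4.71 and 7.30 CPM in CT 1 to 3 (log2 difference for IM against CT 1.09, SE 0.36, adjusted p = 0.707). Prdx4, a peroxiredoxin of the secretory pathway, had a log2 difference of −1.76 for IM against CT (SE 0.60, adjusted p = 0.707). Its level was 31.6, 28.8 and 8.56 CPM in IM 1 to 3 and 44.3, 152 and 37.5 CPM in CT 1 to 3. CT 2, the highest, was also the library with most pancreatic marker counts, and the part of pancreatic RNA in the Prdx4 level was not tested. On the distal Hox score, 5 of the 18 passed, where 9.98% of all genes did. Prdx6 rose by 0.54 log2 units per unit (SE 0.09, adjusted p = 0.0114), with Gclm, Sod3 and Txnrd1 at slopes of 0.31, 0.24 and 0.25. Gpx4, a lipid peroxide reductase, fell by 0.37 (SE 0.09, adjusted p = 0.0418).

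Of 24 cytokine, receptor and signalling genes known upstream of the members, 19 could be tested and 0 passed in any group comparison by edgeR or DESeq2, with 2, 2 and 1 at an unadjusted p under 0.05 for IM against CT, IM-HYA against IM and IM-HYA against CT. Il22 and Il17a had 0 reads in all 9 libraries, and Il6 had reads in IM-HYA 1 alone (4). The receptor gene Il22ra1, which epithelial cells carry, had 54.5 to 65.5 CPM in IM-HYA, 29.3 to 59.7 CPM in IM and 46.5 to 66.1 CPM in CT. Stat3 had a log2 difference of −0.73 for IM-HYA against IM (SE 0.29, adjusted p = 0.666), with 135, 163 and 279 CPM in IM 1 to 3. The flagellin receptor Tlr5 had a log2 difference of 1.80 for IM against CT (SE 0.68, adjusted p = 0.707). It rested on few reads, 52, 31 and 44 in IM 1 to 3 and 7, 9 and 8 in CT 1 to 3. On the distal Hox score, 1 of the 19 tested genes of this list passed, where 9.98% of all genes did. It was Il18, an epithelial cytokine, which rose by 0.44 log2 units per unit (SE 0.09, adjusted p = 0.0250).

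The members fell into patterns across libraries that crossed their roles. Nox1 and Saa1 had a correlation of 0.88, Lypd8 and Saa1 of 0.82, and Reg4 and Saa1 of 0.81, over 9 libraries that share the same scaling. IM 3, the library with the lowest epithelial score, was the lowest for each of these members, with 0.558 CPM of Nox1 and 143 CPM of Saa1. The correlations without IM 3 were not computed, so how far they rest on that library was not tested. Among 13716 other named genes (13717 for Nos2) of at least 1 CPM on average, those most like Reg4 were Best2 (r = 0.987), a bestrophin channel of colonic goblet cells, and Slc37a2 (0.985). Those most like Reg3b were Borcs8 (0.989) and Padi2 (0.987), and Smg9 (0.978) was among those most like Reg3g. Ang4 was most like Amt and Pdia5 (0.933 and 0.932), Duox2 like Galnt12 and Mab21l2 (0.952 and 0.942), and Duoxa2 like Fam114a1 and Mia (0.946 and 0.944). Lypd8 was most like Cdc16 and Pex14 (0.989 and 0.985), Saa1 like Timm8b and Bex4 (0.990 and 0.988), Nox1 like Mad2l1 and Zfp750 (0.964 and 0.961), and Nos2 like Tulp4 and Chrnb2 (0.959 and 0.945). With 9 libraries and this many candidates these are descriptions of likeness and carry no test.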

How the data were processed

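Colon RNA was sequenced in 9 libraries. The submitters' processing notes name HISAT2 2.1.0, StringTie 2.1.3b, Trimmomatic and bcl2fastq 2.20.0, and the mouse build GRCm38 (mm10). How strand was handled and which annotation release was used are not given in the sources used here. Per the file headers, the authors deposited whole-number read counts per gene, not normalised, which entered every test. The deposited TPM values, scaled by the authors for gene length and library, served to compare levels between genes. The deposited FPKM values were not used. All per-sample columns were matched to a library, leaving 0 unmatched.

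The table lists 45777 genes, of which 27860 had at least 1 read. The low count filter of edgeR (filterByExpr with group, at least 10 reads and 15 in total) left 18414, all 10 members among them. CPM was computed on effective library sizes after TMM scaling. Contrasts and the slope on the distal Hox score came from edgeR 4.0.16 quasi-likelihood fits over all 9 libraries (6 residual degrees of freedom with group only), two-sided, with Benjamini-Hochberg adjustment over all genes tested and a threshold of 0.05. The SE is the log2 difference divided by the square root of F. The fits were run on simulated data with known changes, and the share of changes recovered is not given here. DESeq2 1.42.0, other scalings and filters, a replicate block, covariates and left-out libraries were alternatives, with R 4.3.3. The Hox score used log2 CPM with a prior count of 2. Limits for 0 counts were set at 3 reads and cover counting error only. Gene positions, upstream windows and their motifs came from RefSeq tables on GRCm38.p6; overlaps and shared 50-base words from GENCODE annotation of the same build.

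Members and gene lists were chosen with earlier results of these data known. All members are named; of each list the genes that passed, at most 6 by adjusted p, or else up to 2 with the smallest p, and for each member the 2 genes of highest Pearson correlation, 1 of which is not reported here. Genes named in addition are near copies, partners and markers.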

Additional observations from a re-analysis of the deposited data

How the results depend on the processing

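Counts of genes called by DESeq2 were 65 for IM against CT, 43 for IM-HYA against IM and 15 for IM-HYA against CT, and edgeR called 0 for IM against CT without CT 2 and IM 3. With each library left out in turn, edgeR called 1 to 2 genes for IM against CT and 0 to 1 for IM-HYA against IM. No member passed in a group comparison under any alternative run.

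The distal Hox score called 1838 genes in all, against 4009 with DESeq2, 3472 with Hoxd13 alone as the score, 18 with a replicate block, 25 without IM 1, 568 without IM-HYA 1, 657 without IM-HYA 3 and 983 without CT 1. The number of members called was 1 without a filter (4.58% of all genes), 5 with DESeq2 (21.8%), 6 without CT 2 and IM 3 (12.7%), and 0 to 4 with a library left out (0.133% to 8.96%). Same-numbered libraries had correlations of −0.27 to 0.36, and not every library correlated best with its own number. Libraries numbered 1 correlated at 0.25 to 0.31 and had near-equal distal Hox scores, 4.40 in CT 1, 4.51 in IM 1 and 4.47 in IM-HYA 1. Whether replicate numbers pair the libraries was therefore not settled. With a replicate block 0 members were called on the score, and the Duoxa2 and Nos2 slopes were 0.026 and −0.074. The block made the Duoxa2 value for IM-HYA against IM 0.077 and the Reg3g value for IM-HYA against CT 0.26.

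Of the members' differences between groups, 17 of 327 values under other settings and 19 of 270 with a library left out changed direction, all for values that did not pass. With the distal Hox score in the model, IM against CT was −5.86 for Reg3b, IM-HYA against IM 0.17 for Duoxa2 and −0.14 for Nox1, and IM-HYA against CT 0.64 for Ang4. The epithelial score made IM-HYA against IM −0.14 for Nox1, and no filter made it 0.026 for Duoxa2. The pancreatic score, an alternative added after seeing the data, made IM-HYA against CT 3.53 for Reg3b, 1.69 for Reg3g and 0.049 for Reg4. Without CT 2 and IM 3, IM against CT was 0.25 for Lypd8, 0.047 for Duoxa2 and −0.11 for Nos2, IM-HYA against IM was −0.44 for Nox1, and IM-HYA against CT was 1.98 for Reg3b and 0.77 for Reg3g.

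With each library left out, values for IM against CT ran from −0.84 to 8.46 for Reg3b, −6.19 to 3.75 for Ang4, −0.048 to 0.49 for Duox2 and −0.21 to 0.27 for Nos2. Those for IM-HYA against IM ran from −3.58 to 5.48 for Ang4, −0.34 to 0.65 for Duox2, −0.25 to 0.51 for Duoxa2 and −0.45 to 0.88 for Nox1. Those for IM-HYA against CT ran from −10.98 to 2.17 for Reg3b, −2.39 to 0.81 for Reg3g, −0.82 to 0.062 for Reg4, −6.29 to 5.74 for Ang4, −0.046 to 0.50 for Lypd8 and −0.058 to 0.87 for Duox2. The Nos2 slope ran from −0.012 to 0.13. The cause of these changes was not tested. Read number limits the precision for Nos2, which had 6 to 49 reads per library. It also limits that for Reg3g, with 6, 45 and 3 reads in IM-HYA 1 to 3 and 0, 18 and 9 in CT 1 to 3.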
